A study of Homo sapiens with 9 samples.

Results

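Interferon-stimulated effector genes encode proteins that block viruses at their steps of replication, and 42 of them, outside the IFIT, OAS, ISG15, IFI44 and IFITM families, were followed by symbol through the read count table of OCI-Ly1 cells depleted of LSD1. The table held 41 of the 42 symbols among its 26816 genes, and 39 had enough reads to be tested among 15725 tested genes. The genes were listed by name for what they are known to do, with earlier results of these data known, so the list is not independent of the counts below. OCI-Ly1 is an established human B-cell line, from a diffuse large lymphoma of germinal-centre type, and all groups are this 1 line. The groups were cells with the shRNA clone that the table calls sh68, cells with the clone it calls sh72, and cells with a non-targeted control shRNA, shSCR, with 3 biological replicates each. Both LSD1 clones act on KDM1A, the gene of the histone demethylase LSD1, and all 3 groups carried the shRNA in the pLKO1 vector and were selected with puromycin, so that vector and selection are shared by the controls. Polyadenylated RNA was sequenced, and no source used here gives the time between infection and harvest.

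Type I and type III interferons bind receptors at the cell surface and activate the kinases JAK1 and TYK2. Through them the factor ISGF3, which holds STAT2 and IRF9, is formed and binds the interferon-stimulated response element in promoters and switches on the effector genes. Many of the genes keep a low, tonic level of transcription without added interferon, and loss of LSD1 has been linked in other cells to a raised interferon response through double-stranded RNA of repeat elements. The effectors act by different means: some are GTPases that trap viral nucleocapsids, some make or remove nucleotides, some bind or degrade RNA, and others attach ADP-ribose, build nuclear bodies or tether particles at the membrane.

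Stretches of 8 promoters are shown because the element that ISGF3 binds can be read in them, 6 from genes that fell with each shRNA and, for contrast, RTP4 and LGALS3BP, which did not. The element was searched as GAAA, 2 bases of any kind and GAAA again, on both strands of RefSeq windows (GRCh38.p14) that run from 250 bases before to 50 bases after each start. Capitals mark the copies found, and the strand is that of the gene. Bases are counted from the RefSeq start of the window as 1, with -1 just before it. For DDX60 that start, 168318752, lies inside the gene's span of 168216294 to 168325979. In GENCODE 29, all 30 bases of the PARP14, DTX3L, MX1, RTP4 and LGALS3BP stretches lie in annotated exons. So do 25 of the 70 bases for DDX60, 22 of 100 for DDX60L and 30 of 100 for EPSTI1. Exons of any gene on either strand were counted.
DDX60 (chr4:168318783-168318852, minus strand, bases -100 to -31): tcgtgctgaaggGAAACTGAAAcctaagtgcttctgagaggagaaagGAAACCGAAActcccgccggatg
DDX60L (chr4:168480493-168480592, minus strand, bases -100 to -1): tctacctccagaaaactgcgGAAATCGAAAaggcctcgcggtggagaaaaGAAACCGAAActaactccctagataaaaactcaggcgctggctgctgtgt
EPSTI1 (chr13:42992242-42992341, minus strand, bases -100 to -1): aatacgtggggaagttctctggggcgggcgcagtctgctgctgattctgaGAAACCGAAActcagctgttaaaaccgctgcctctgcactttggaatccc
PARP14 (chr3:122680800-122680829, plus strand, bases -39 to -10): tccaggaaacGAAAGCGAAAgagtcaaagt
DTX3L (chr3:122564320-122564349, plus strand, bases -18 to 12): ctccagggaagcGAAACTGAAActttgcgc
MX1 (chr21:41420559-41420588, plus strand, bases 2 to 31): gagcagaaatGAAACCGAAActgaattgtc
RTP4 (chr3:187368333-187368362, plus strand, bases -52 to -23): tccatacacaGAAACAGAAActgaaccgaa
LGALS3BP (chr17:78979962-78979991, minus strand, bases -68 to -39): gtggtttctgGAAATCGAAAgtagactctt

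A window was given for 35 of the 42 genes, and 21 of these, 60%, held at least 1 copy of the element, against 4.38% of 27305 genes over the whole RefSeq table. The shorter gamma-activated site, TTC, 3 bases of any kind and GAA, was in the windows of 10 of the 35, 28.6%, against 9.38% of all genes. DDX60, DDX60L, RTP4 and BST2 had 2 copies of the response element in a single window and MX1 had 2 copies in windows of different starts, and in BST2 the copies overlap each other and the first also overlaps a gamma-activated site. The PARP9 and DTX3L windows, which face away from each other on chromosome 3, share a single copy. Of the RTP4 and MX1 copies, 1 each is printed. Such a match is a run of letters and no evidence of binding, and genes whose windows hold none, XAF1, SAMD9L, HELZ2 and CMPK2 among them, may have it elsewhere.

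Knockdown was seen in every LSD1 shRNA library. In CPM, the reads of a gene per unit of scaled library total, KDM1A had 23.4, 24.1 and 25.8 CPM in the sh68 libraries, 19.1, 22.7 and 20.9 CPM in the sh72 libraries and 121, 119.9 and 123 CPM in the shSCR libraries. The log2 fold change of KDM1A was -2.31 ± 0.05 with sh68 and -2.54 ± 0.06 with sh72, with adjusted p of 2.8e-20 and 5.1e-20 by edgeR's quasi-likelihood test. KDM1A was slightly lower with sh72 than with sh68, with a log2 difference of -0.23 (adjusted p = 0.0026), and the 6 LSD1 shRNA libraries did not overlap the 3 controls (exact two-sided permutation test, p = 0.0119, the smallest that 84 relabellings allow). Libraries held 29506767 to 35270849 counted reads. Markers of the B-cell lineage were abundant, with 8 of 8 genes read and a summed level of 4356 to 4484 CPM in sh68, 2781 to 2950 CPM in sh72 and 4366 to 4507 CPM in shSCR. Markers of germinal-centre B cells summed to 1955 to 1988 CPM in sh68, 1324 to 1400 CPM in sh72 and 1503 to 1556 CPM in shSCR. Summed markers of T cells, natural killer cells, stroma and plasmacytoid dendritic cells stayed at or below 3.44 CPM in every library. Monocyte markers summed to 3.05 to 4.48 CPM, and epithelial markers to 7.52 to 8.89 CPM in sh68, 15.5 to 16.2 CPM in sh72 and 15.2 to 18.1 CPM in shSCR, of which EPCAM made up nearly all. The lower B-cell sum with sh72 and the lower epithelial sum with sh68 stood beside all results below. So did the germinal-centre sum, which was higher with sh68 and lower with sh72 than with shSCR. Its 6 markers did not move alike: 4 were called higher and 2 lower with sh68, and 2 higher and 4 lower with sh72. The shares of all tested genes called are given below. The part of these shifts in the results was not tested.

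Most of the effector genes were lower after LSD1 depletion. XAF1, DDX60, RSAD2 and MX1, with the largest falls, fell further with sh68 than with sh72, while TRANK1, NMI, TOR1B, ISG20, SAMHD1, CNP and SP140 were lower with sh72 than with sh68. On the mean of both shRNAs against shSCR, 33 of the 39 tested genes fell, 4 rose and 2 did not pass, at a Benjamini-Hochberg adjusted p below 0.05 over all tested genes. Calls were common in these data: 27.5% of all tested genes were called lower and 24.9% higher in that comparison. With sh68, 32 fell, 3 rose and 4 did not pass, where 28.1% of all genes were called lower and 27.4% higher. With sh72, 32 fell, 5 rose and 2 did not pass, where 26.3% were called lower and 24.7% higher. The counts by role given below stand against these same shares of all tested genes. The median log2 fold change of the 39 was -0.74 with sh68 and -0.39 with sh72, while that of all tested genes was -0.01 in each. Both comparisons use the same 3 control libraries, so they are not independent of each other. Since the libraries are bulk RNA, fewer cells expressing a gene and less RNA in each cell cannot be told apart. With library size alone in place of TMM scaling, 4475 genes were called higher and 3689 lower on the mean over all genes, against 3908 higher and 4318 lower as scaled, while the 39 genes gave 31 lower and 4 higher. With the 6 LSD1 shRNA libraries fitted as 1 group, 22 of the 39 were lower and 3 higher on the mean. Over all genes that fit gave 1724 lower and 1857 higher. DDX60 (adjusted p = 0.0892), RSAD2 (0.0556), HELZ2 (0.0541) and EPSTI1 (0.121) were among the members that no longer passed in it.

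**Figure D1:**
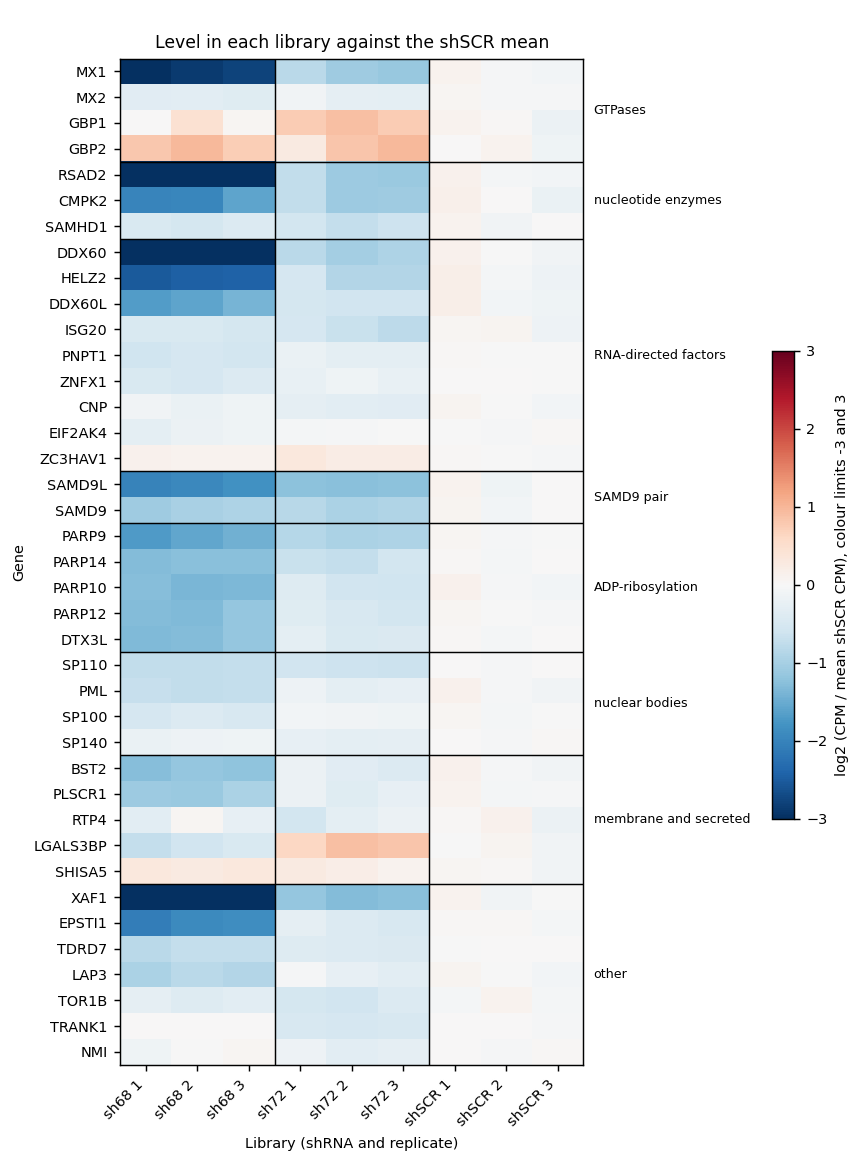
Level of each of the 39 tested genes in each library, as log2 of its CPM over the mean shSCR CPM of that gene, with sh68, sh72 and shSCR libraries left to right and genes grouped by role. Blue is lower than the control mean and red is higher, and colours saturate at -3 and 3. The sh68 columns are the darkest blue for MX1, RSAD2, DDX60 and XAF1, and LGALS3BP is blue with sh68 and red with sh72.

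The sum over the 41 genes present was 2984, 3038 and 3094 CPM in the sh68 libraries, 4184, 3874 and 3838 CPM in the sh72 libraries, and 6060, 5645 and 5592 CPM in the shSCR libraries. These sums do not overlap between the 3 groups. Of them, MX1 alone held a mean of 163 CPM in sh68, 611 CPM in sh72 and 1221 CPM in shSCR. Per kilobase of annotated exon, BST2 and MX1 were the highest in shSCR at 168 and 142 CPM per kb, and the lowest tested member was GBP2 at 0.128 CPM per kb. In sh68 cells BST2 stood at 72.7 CPM per kb and MX1 at 18.9, below SHISA5 at 42.5 and TRANK1 at 42.6 CPM per kb.

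Among the GTPases, MX1 fell with each shRNA, MX2 fell only slightly, and the guanylate-binding proteins did not fall. MX1 (GRCh38.p14, chromosome 21, 41420558 to 41459214) forms rings around viral nucleocapsids, chiefly those of influenza virus. It had 145, 167 and 177 CPM in the sh68 libraries, 694, 587 and 551 CPM in the sh72 libraries and 1314, 1198 and 1150.2 CPM in the shSCR libraries. No library of one group reached the range of another, and the sh68 mean was 13.4% of the shSCR mean and the sh72 mean 50.02%. The log2 fold change was -2.90 ± 0.07 (adjusted p = 8.2e-20) with sh68 and -0.999 ± 0.07 (adjusted p = 1.4e-11) with sh72. MX2 (chromosome 21, 41362027 to 41409393), its neighbour on the same chromosome, which restricts HIV-1, had 139.7, 142 and 137 CPM in the sh68 libraries, 166, 148 and 145 CPM in the sh72 libraries and 186, 174 and 172 CPM in the shSCR libraries. The MX2 libraries of each LSD1 shRNA lay below all controls, with log2 fold changes of -0.35 ± 0.05 for sh68 (adjusted p = 7.5e-07) and -0.21 ± 0.05 for sh72 (adjusted p = 0.00036).

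GBP1 and GBP2, GTPases that coat the vacuoles of intracellular pathogens, were read at low levels. GBP1 had 3.501, 4.79 and 3.61 CPM in the sh68 libraries, 5.92, 6.57 and 5.904 CPM in the sh72 libraries and 3.77, 3.601 and 3.09 CPM in the shSCR libraries. Its sh72 libraries lay above all controls while the sh68 libraries overlapped them, and the log2 fold change was 0.81 ± 0.13 (adjusted p = 1.1e-05) with sh72 and 0.19 ± 0.14 with sh68, which did not pass (adjusted p = 0.253). GBP2 had 1.41, 1.57 and 1.33 CPM in the sh68 libraries, 0.962, 1.42 and 1.57 CPM in the sh72 libraries and 0.804, 0.866 and 0.733 CPM in the shSCR libraries. All 6 LSD1 shRNA libraries lay above the controls for GBP2, by 0.84 ± 0.23 under sh68 (adjusted p = 0.0029) and 0.71 ± 0.23 under sh72 (adjusted p = 0.014) on the log2 scale. Without sh72 replicate 3 the sh72 call on GBP2 was lost (log2 fold change 0.58, adjusted p = 0.067). GBP4 had 1 to 9 reads a library and was not tested. How reads that match more than 1 paralog, as in the GBP, MX, SAMD9 and DDX60 pairs, were counted is not stated.

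The nucleotide enzymes fell in 3 of 3 cases with each shRNA. RSAD2 (chromosome 2, 6865885 to 6898239), or viperin, makes a chain-terminating nucleotide that stops viral polymerases, and CMPK2 (chromosome 2, 6840553 to 6866635) is the adjacent mitochondrial kinase that supplies its substrate. RSAD2 had 2.702, 3.48 and 4.17 CPM in the sh68 libraries, 19.9, 15.7 and 15.3 CPM in the sh72 libraries and 36.5, 31.7 and 31.4 CPM in the shSCR libraries. Its 3 groups were apart from each other, with 10.4% of the shSCR mean left in sh68 cells and 51.1% in sh72 cells, log2 fold changes of -3.26 ± 0.11 (adjusted p = 4.6e-17) and -0.97 ± 0.09 (adjusted p = 4.6e-09). CMPK2 had 5.31, 5.41 and 7.07 CPM in the sh68 libraries, 12.6, 9.79 and 9.97 CPM in the sh72 libraries and 23.4, 21.3 and 18.4 CPM in the shSCR libraries, again without overlap, and fell by less with sh68, with log2 fold changes of -1.82 ± 0.11 (adjusted p = 1.6e-12) for sh68 and -0.96 ± 0.10 (adjusted p = 4e-08) for sh72. The exons of RSAD2 and CMPK2 share 14 bases on opposite strands in GENCODE 29, and no source used here gives the strand setting of the counting. SAMHD1, which hydrolyses deoxynucleotides and so starves reverse transcription, had 89.8 ± 3.53 CPM with sh68, 79.99 ± 4.42 CPM with sh72 and 124 ± 9.43 CPM with shSCR (SD, n = 3 each). SAMHD1 was lower with sh72 than with sh68, and both were below shSCR, at log2 fold changes of -0.63 ± 0.05 and -0.47 ± 0.05. The gene shares 1159 bases, 10.3% of its annotated exons, with TLDC2 on the other strand.

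**Figure D2:**
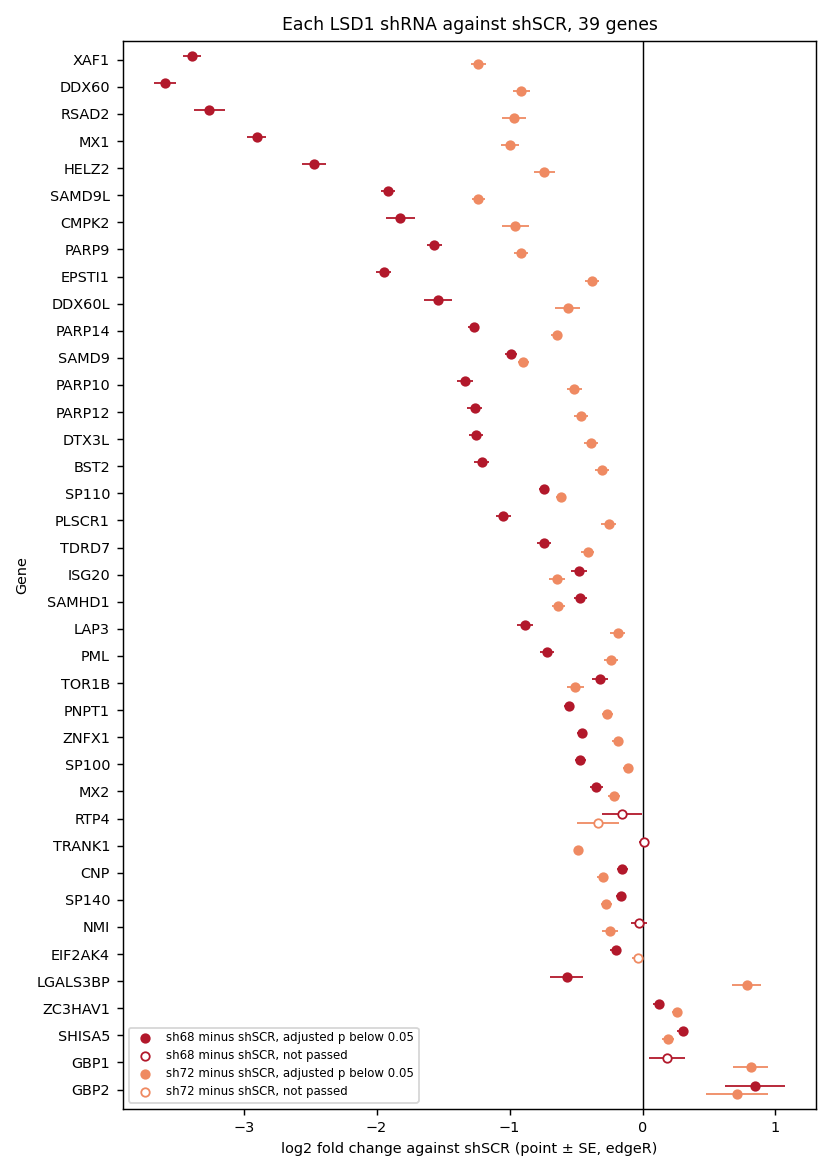
Log2 fold change against shSCR of each of the 39 tested genes for sh68 (dark red) and sh72 (orange), with SE, ordered by the mean of both with the lowest at the top. Filled points have an adjusted p below 0.05. The points of sh68 reach -3.59 for DDX60, and no sh72 point is below -1.24.

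Factors that bind, unwind or degrade RNA fell in 8 of 9 tested cases with sh68 and in 7 of 9 with sh72. The lowest values in this group were those of DDX60, HELZ2 and DDX60L. DDX60 (chromosome 4, 168216294 to 168325979), a DExD/H-box helicase that promotes RIG-I signalling and acts on viral internal ribosome entry sites, had 7.12, 8.32 and 9.51 CPM in the sh68 libraries, 57.4, 49.7 and 53.1 CPM in the sh72 libraries and 109.7, 99.02 and 93.2 CPM in the shSCR libraries. That is 8.26% of the shSCR mean for sh68 and 53.1% for sh72. It changed by -3.59 ± 0.08 (adjusted p = 1.2e-20) with sh68 and -0.91 ± 0.06 (adjusted p = 3.4e-11) with sh72 on the log2 scale, and the groups were apart in every library. Its close relative DDX60L (chromosome 4, 168356735 to 168480492), which restricts hepatitis C virus, was read at lower levels, with 3.72, 3.93 and 4.51 CPM in the sh68 libraries, 8.14, 7.87 and 7.97 CPM in the sh72 libraries and 13.3, 11.2 and 10.8 CPM in the shSCR libraries. DDX60L fell by less, with log2 fold changes of -1.54 ± 0.10 for sh68 (adjusted p = 7.5e-12) and -0.56 ± 0.09 for sh72 (adjusted p = 2.1e-05), and its groups did not overlap either.

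HELZ2, a helicase and nuclear coactivator, also fell further with sh68 than with sh72. It had 15.4, 16.2 and 16.3 CPM in the sh68 libraries, 62.4, 48.2 and 48.02 CPM in the sh72 libraries and 100.4, 85.1 and 79.3 CPM in the shSCR libraries. Its groups were apart, and it fell to 18.1% of the shSCR mean with sh68 and to 59.9% with sh72. The log2 fold changes of HELZ2 were -2.47 ± 0.09 (adjusted p = 1e-16) for sh68 and -0.74 ± 0.08 (adjusted p = 4.5e-08) for sh72. The remaining members of this group moved less. ISG20, a 3′ to 5′ exonuclease, had 73.97 ± 2.203 CPM with sh68, 65.7 ± 6.46 CPM with sh72 and 103 ± 8.705 CPM with shSCR (SD, n = 3 each), and PNPT1, the mitochondrial polynucleotide phosphorylase, had 107 ± 3.56 CPM with sh68, 131 ± 5.37 CPM with sh72 and 157 ± 2.297 CPM with shSCR. Both fell with each shRNA, with log2 fold changes of -0.48 for ISG20 and -0.55 for PNPT1 with sh68, and of -0.65 and -0.27 with sh72. ZNFX1, a mitochondrial sensor of double-stranded RNA, fell, with log2 fold changes of -0.46 with sh68 and -0.19 with sh72, and its exons overlap those of DDX27 by 203 bases and of ZFAS1 by 249 bases on the other strand.

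CNP, a cyclic nucleotide phosphodiesterase that binds RNA, fell, with log2 fold changes of -0.15 under sh68 (adjusted p = 0.0034) and -0.30 under sh72 (adjusted p = 1.9e-06), and its gene shares 401 exon bases with DNAJC7 on the other strand. Its sh68 call was lost without shSCR replicate 1 (log2 fold change -0.10, adjusted p = 0.073) and without sh68 replicate 2 (-0.11, adjusted p = 0.052). EIF2AK4, the kinase GCN2, which halts translation on uncharged tRNA, fell with sh68 only by its own test, at -0.20 ± 0.04 (adjusted p = 0.00034) against -0.04 ± 0.04 (adjusted p = 0.508) for sh72 on the log2 scale, and the difference between the shRNAs passed (adjusted p = 0.002). On the mean of both, EIF2AK4 was called lower at -0.12 but not without shSCR replicate 3 (-0.09, adjusted p = 0.083) or with library size alone (adjusted p = 0.060). ZC3HAV1, the zinc-finger antiviral protein ZAP that degrades CpG-rich RNA, rose with each shRNA. ZC3HAV1 had 118, 117 and 116 CPM in the sh68 libraries, 135, 126 and 126 CPM in the sh72 libraries and 110.5, 107 and 106 CPM in the shSCR libraries, all 6 LSD1 shRNA libraries above all controls, at 0.12 ± 0.04 under sh68 (adjusted p = 0.013) and 0.26 ± 0.04 under sh72 (adjusted p = 7.4e-06). SHFL, which stops frameshifting translation, was not in the table under that symbol. SHFL shares 735 exon bases with AC020931.1 and 442 with ANGPTL6 on the other strand. Its older symbol C19orf66, outside the rule and outside the counts above, had 38.3, 35.2 and 35.97 CPM in the sh68 libraries, 48.8, 49.6 and 45.4 CPM in the sh72 libraries and 72.5, 68.9 and 73.1 CPM in the shSCR libraries, with all 6 LSD1 shRNA libraries below the controls and log2 fold changes of -0.97 ± 0.05 for sh68 and -0.58 ± 0.05 for sh72.

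SAMD9 and SAMD9L, neighbours on chromosome 7 that restrict poxviruses by halting translation, both fell with each shRNA. SAMD9 (chromosome 7, 93099518 to 93117979) had 153, 162 and 166 CPM in the sh68 libraries, 178, 166 and 169 CPM in the sh72 libraries and 335, 301 and 318 CPM in the shSCR libraries. The sh68 and sh72 libraries overlapped each other and lay far below the controls, with log2 fold changes of -0.99 ± 0.04 and -0.90 ± 0.04 and an adjusted p of 0.076 for the difference of 0.09 ± 0.04. SAMD9L (chromosome 7, 93130056 to 93148385) had 63.5, 67.4 and 73.02 CPM in the sh68 libraries, 109.9, 107 and 110.0 CPM in the sh72 libraries and 277, 233 and 258 CPM in the shSCR libraries. Here the shRNAs were apart, at -1.91 ± 0.05 under sh68 (adjusted p = 7.8e-19) and -1.23 ± 0.05 under sh72 (adjusted p = 3.4e-15). The difference between the shRNAs for SAMD9 passed the threshold without sh68 replicate 3 (0.12, adjusted p = 0.046), without sh72 replicate 2 (0.12, adjusted p = 0.043) with library size alone (0.10, adjusted p = 0.037), with no filter on low counts (0.11, adjusted p = 0.0295), with only the groups compared (0.11, adjusted p = 0.036) and with a replicate block (0.09, adjusted p = 0.046), with the same sign.

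The ADP-ribosylation genes fell in 5 of 5 cases with each shRNA, with log2 fold changes between -1.56 and -1.26 for sh68 and between -0.91 and -0.39 for sh72. PARP9 and DTX3L encode partners that ubiquitinate histones and viral proteins, and lie head to head (chromosome 3, 122527924 to 122564784 for PARP9 and chromosome 3, 122564338 to 122575203 for DTX3L) with the shared copy of the response element printed above. PARP9 had 29.7, 32.6 and 35.5 CPM in the sh68 libraries, 52.98, 50.1 and 50.5 CPM in the sh72 libraries and 100.3, 94.3 and 95.02 CPM in the shSCR libraries. DTX3L had 39.6, 40 and 44.1 CPM in the sh68 libraries, 80.4, 72.3 and 73.04 CPM in the sh72 libraries and 101, 94.3 and 99.8 CPM in the shSCR libraries. In both genes the 3 groups were apart, and the sh72 mean was 53.04% of the shSCR mean for PARP9 and 76.4% for DTX3L. The log2 fold changes of PARP9 were -1.56 ± 0.05 (adjusted p = 3.2e-17) with sh68 and -0.91 ± 0.05 (adjusted p = 7.3e-13) with sh72, and those of DTX3L -1.26 ± 0.05 (adjusted p = 9.9e-16) and -0.39 ± 0.05 (adjusted p = 6.1e-07). Their exons share 217 bases on opposite strands. PARP14 (chromosome 3, 122680839 to 122730840), a mono-ADP-ribosyltransferase of the same cluster, had 93.1, 95 and 95.8 CPM in the sh68 libraries, 143, 139.9 and 155 CPM in the sh72 libraries and 235, 218 and 232 CPM in the shSCR libraries. PARP14 fell, with log2 fold changes of -1.27 with sh68 and -0.65 with sh72, without overlap between groups. PARP10 had 38.9 ± 1.45 CPM with sh68, 68.9 ± 6 CPM with sh72 and 98.4 ± 7.53 CPM with shSCR, and PARP12, which blocks translation of alphaviruses, had 33.7 ± 2.01 CPM with sh68, 58.7 ± 3.67 CPM with sh72 and 80.9 ± 2.88 CPM with shSCR (SD, n = 3 each), all below the controls in each library. The exons of PARP10 overlap those of GRINA by 324 bases on the other strand.

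**Figure D3:**
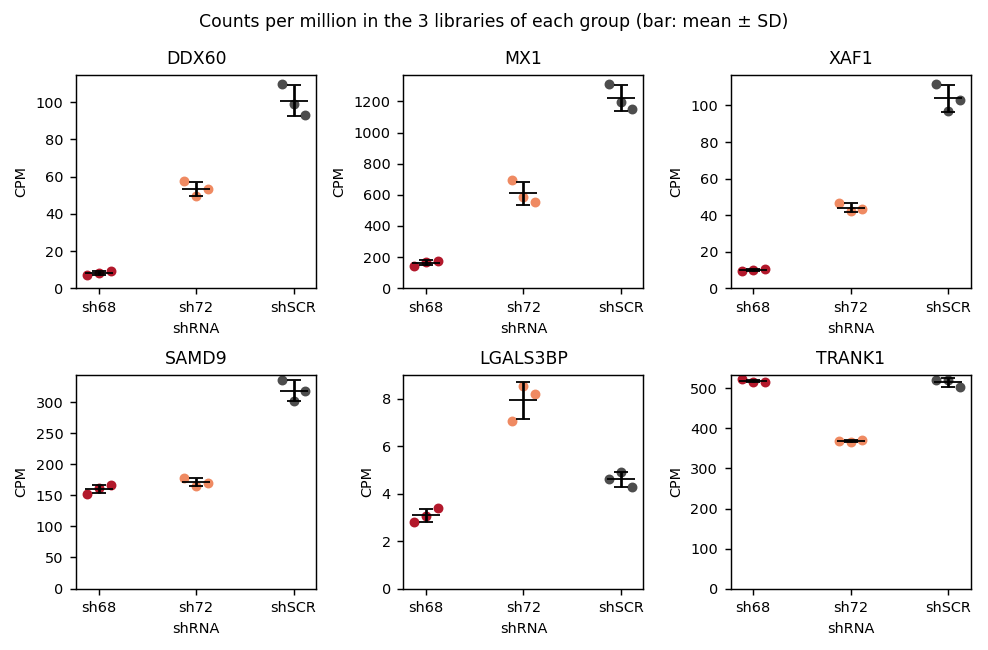
CPM of DDX60, MX1, XAF1, SAMD9, LGALS3BP and TRANK1 in the 3 libraries of sh68, sh72 and shSCR, each point a library and the bars the mean ± SD; axes start at 0. DDX60, MX1 and XAF1 are lowest with sh68, in between with sh72 and highest with shSCR, SAMD9 overlaps between the LSD1 shRNAs and lies below shSCR, LGALS3BP is below shSCR with sh68 and above it with sh72, and TRANK1 is lower with sh72 alone.

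The nuclear body proteins fell in 4 of 4 cases with each shRNA. SP110 had 151 ± 1.29 CPM with sh68, 165 ± 4.32 CPM with sh72 and 252 ± 6.13 CPM with shSCR (SD, n = 3 each), with log2 fold changes of -0.74 ± 0.04 and -0.61 ± 0.04 for sh68 and sh72, and a difference between them of 0.13 ± 0.04 (adjusted p = 0.0048). PML, the scaffold of the bodies, had 45.4 ± 0.547 CPM with sh68, 63.5 ± 3.45 CPM with sh72 and 74.7 ± 5.87 CPM with shSCR and fell, with log2 fold changes of -0.72 with sh68 and -0.23 with sh72. SP100, its long-standing partner, fell, with log2 fold changes of -0.47 under sh68 (adjusted p = 5.1e-10) and -0.11 under sh72 (adjusted p = 0.023), the smallest called fall with sh72. That sh72 call was lost without shSCR replicate 1 (log2 fold change -0.06, adjusted p = 0.285), shSCR replicate 3 (-0.11, adjusted p = 0.054), sh68 replicate 3 (-0.10, adjusted p = 0.052), sh72 replicate 2 (-0.09, adjusted p = 0.12) and sh72 replicate 3 (-0.08, adjusted p = 0.14). The call was also lost with RLE scaling (adjusted p = 0.0504), library size alone (0.122), DESeq2 (0.057) and only the groups compared (0.058). SP140, the lymphoid member, fell, with log2 fold changes of -0.16 with sh68 and -0.27 with sh72. SP110 and SP140 are adjacent and share 170 exon bases on opposite strands. SP110 also shares 1262 bases, 18.4% of its annotated exons, with AC009950.1 on the other strand.

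The membrane and secreted factors did not move as 1 group. BST2, or tetherin, which holds budding virions at the cell surface, had 81.4 ± 3.32 CPM with sh68, 153 ± 12.3 CPM with sh72 and 188 ± 15.97 CPM with shSCR (SD, n = 3 each), and PLSCR1, a phospholipid scramblase that blocks entry of viruses, had 31.7 ± 1.97 CPM with sh68, 54.9 ± 3.71 CPM with sh72 and 65.5 ± 3.92 CPM with shSCR. BST2 fell, with log2 fold changes of -1.21 with sh68 and -0.30 with sh72, and PLSCR1 fell, with log2 fold changes of -1.05 and -0.26, with all libraries of each shRNA below the controls. LGALS3BP (chromosome 17, 78971255 to 78979923), a secreted glycoprotein that binds galectins, was the only one of the 39 to pass in opposite directions. The share of all tested genes that did so was not counted, so whether this is unusual cannot be said. LGALS3BP had 2.82, 3.08 and 3.38 CPM in the sh68 libraries, 7.06, 8.56 and 8.2 CPM in the sh72 libraries and 4.61, 4.92 and 4.305 CPM in the shSCR libraries. The sh68 libraries lay below all controls and the sh72 libraries above them, with log2 fold changes of -0.57 ± 0.12 (adjusted p = 0.00042) and 0.78 ± 0.11 (adjusted p = 1.9e-06) and a difference of 1.35 ± 0.11 (adjusted p = 4.8e-10). SHISA5, a p53-induced protein of the endoplasmic reticulum, had 199, 194 and 202 CPM in the sh68 libraries, 194, 184 and 173 CPM in the sh72 libraries and 168, 164 and 151 CPM in the shSCR libraries. All 6 of these LSD1 shRNA libraries lay above the controls, at 0.30 ± 0.04 under sh68 (adjusted p = 3.9e-06) and 0.19 ± 0.04 under sh72 (adjusted p = 0.00096). RTP4, a receptor-transporting protein that inhibits flaviviruses, had 2.77 ± 0.392 CPM with sh68, 2.46 ± 0.333 CPM with sh72 and 3.096 ± 0.329 CPM with shSCR, and passed in no comparison. LY6E, a GPI-anchored protein that blocks coronavirus fusion, had 1 read in 1 sh72 library and none elsewhere.

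Of the 7 genes of other roles, 5 fell with sh68 and 7 with sh72. XAF1 (chromosome 17, 6755447 to 6775647), a zinc-finger antagonist of XIAP that favours apoptosis, had the lowest log2 fold change on the mean of both shRNAs, -2.31 ± 0.05 (adjusted p = 4.2e-21). XAF1 had 9.33, 9.86 and 10.6 CPM in the sh68 libraries, 46.7, 42.3 and 43.5 CPM in the sh72 libraries and 112, 96.8 and 103 CPM in the shSCR libraries, which left 9.54% of the shSCR mean in sh68 cells and 42.5% in sh72 cells. Its log2 fold change was -3.39 ± 0.06 (adjusted p = 4.4e-22) with sh68 and -1.24 ± 0.05 (adjusted p = 6.9e-15) with sh72, with no overlap between groups. EPSTI1 (chromosome 13, 42886388 to 42992241), an interferon-induced protein of epithelial and stromal interaction, had 18.4, 20.5 and 21.04 CPM in the sh68 libraries, 63.8, 58.3 and 55.7 CPM in the sh72 libraries and 79.1, 78.7 and 73.7 CPM in the shSCR libraries. EPSTI1 fell to 25.9% of the shSCR mean with sh68 and to 76.8% with sh72, log2 fold changes of -1.95 ± 0.06 (adjusted p = 3.5e-18) and -0.38 ± 0.05 (adjusted p = 2.5e-06). XAF1 shares 2535 bases, 38.3% of its annotated exons, with the antisense gene PRAL, which has no row in the table.

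LAP3, an aminopeptidase that trims peptides, fell, with log2 fold changes of -0.88 with sh68 and -0.19 with sh72, where its libraries overlapped the controls. The sh72 call on LAP3 was lost without shSCR replicate 1 (-0.13, adjusted p = 0.102), sh72 replicate 2 (-0.14, adjusted p = 0.082) and sh72 replicate 3 (-0.11, adjusted p = 0.105). TDRD7, which inhibits autophagy used by paramyxoviruses, fell, with log2 fold changes of -0.74 and -0.41 with sh68 and sh72, and TOR1B, an ATPase of the nuclear envelope, was at -0.32 and -0.50. TRANK1, whose function in immunity is little known and whose values were picked out after they were seen, had 523, 517 and 517 CPM in the sh68 libraries, 368, 366 and 371 CPM in the sh72 libraries and 522, 521 and 503 CPM in the shSCR libraries. The sh68 libraries of TRANK1 overlapped the controls and the sh72 libraries lay below all others, with log2 fold changes of 0.01 ± 0.03 (adjusted p = 0.813) and -0.49 ± 0.03 (adjusted p = 2.9e-11). NMI, which binds STAT and MYC proteins, fell with sh72 to a log2 fold change of -0.24 and was at -0.03 with sh68 (adjusted p = 0.702). The call of NMI on the mean of both (-0.14, adjusted p = 0.031) was lost without any one of shSCR replicates 1, 2 and 3, sh68 replicates 1 and 2 or sh72 replicates 2 and 3, with adjusted p of 0.052 to 0.135 and values of -0.15 to -0.10. This NMI call was also lost with library size alone (adjusted p = 0.092), with at least 1 CPM in 3 libraries (0.057) and by DESeq2 (0.076).

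Set directly against each other, the LSD1 shRNAs differed for most of these genes. With sh72 minus sh68, 28 of the 39 were higher with sh72, 8 were lower and 3 did not pass, where 27.2% of all tested genes were called higher and 29% lower. Fitted on the 6 LSD1 shRNA libraries alone, 29 were higher and 6 lower, where 4445 of all genes tested in that fit were higher and 4240 lower. The median difference was 0.48 on the log2 scale for the 39 and -0.01 for all tested genes. The differences were greatest for DDX60 at 2.68 ± 0.08 (adjusted p = 3.9e-18), RSAD2 at 2.29 ± 0.12 (adjusted p = 1.3e-13), XAF1 at 2.15 ± 0.07 (adjusted p = 5.4e-18), MX1 at 1.90 ± 0.07 (adjusted p = 1.1e-16) and HELZ2 at 1.73 ± 0.09 (adjusted p = 1.2e-13). All of these had higher sh72 than sh68 values in every library. The genes lower with sh72 were TRANK1 at -0.50, NMI at -0.21, TOR1B at -0.18, ISG20 at -0.17, SAMHD1 at -0.17, CNP at -0.15, SP140 at -0.11 and SHISA5 at -0.11. SAMD9, RTP4 and GBP2 did not pass, with differences of 0.09 ± 0.04, -0.18 ± 0.15 and -0.13 ± 0.21. The deeper falls of DDX60, RSAD2, XAF1, MX1 and HELZ2 with sh68 stood beside a KDM1A RNA level that was not lower with sh68 than with sh72. These counts hold no measure of LSD1 protein, and the part of LSD1 depletion in the difference between the shRNAs was not tested.

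Several of the smaller differences rested on single libraries or on the processing. The count of 8 genes lower with sh72 was 3 without sh72 replicate 2, and 5 without sh68 replicate 1, sh68 replicate 3 or sh72 replicate 3. Over all genes tested in each fit, 4563 were lower in the main fit and 4173, 4189, 4147 and 4298 in these, in that order. Without sh72 replicate 2 the calls on SAMHD1 (-0.12, adjusted p = 0.094), TOR1B (-0.15, adjusted p = 0.093), ISG20 (-0.15, adjusted p = 0.095), SP140 (-0.09, adjusted p = 0.11) and SHISA5 (-0.10, adjusted p = 0.12) were lost. SAMHD1 also lost it without sh68 replicate 3 (-0.14, adjusted p = 0.051) and TOR1B without sh68 replicate 1 (-0.15, adjusted p = 0.070). ISG20 lost its call without sh68 replicate 1 or 2 or sh72 replicate 3 as well, with -0.16 to -0.10 and adjusted p of 0.0715 to 0.19. SP140 lost it also without sh68 replicate 2 or 3 or sh72 replicate 3 (-0.11 to -0.10, adjusted p of 0.067 to 0.092), and SHISA5 without shSCR replicate 1 or 2, sh68 replicate 1 or 3 or sh72 replicate 3 (-0.11 to -0.06, adjusted p of 0.056 to 0.28). MX2, higher with sh72 by 0.13, lost its call without sh68 replicate 3 (0.12, adjusted p = 0.065) and sh72 replicate 1 (0.07, adjusted p = 0.16). By DESeq2 the calls on ISG20 (adjusted p = 0.055), SP140 (0.073) and SHISA5 (0.11) were lost as well. SP140 and SHISA5 also lost theirs with no filter on low counts (0.092 and 0.0503) and with only the groups compared (0.069 and 0.072), and SHISA5 with RLE scaling (0.062).

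**Figure D4:**
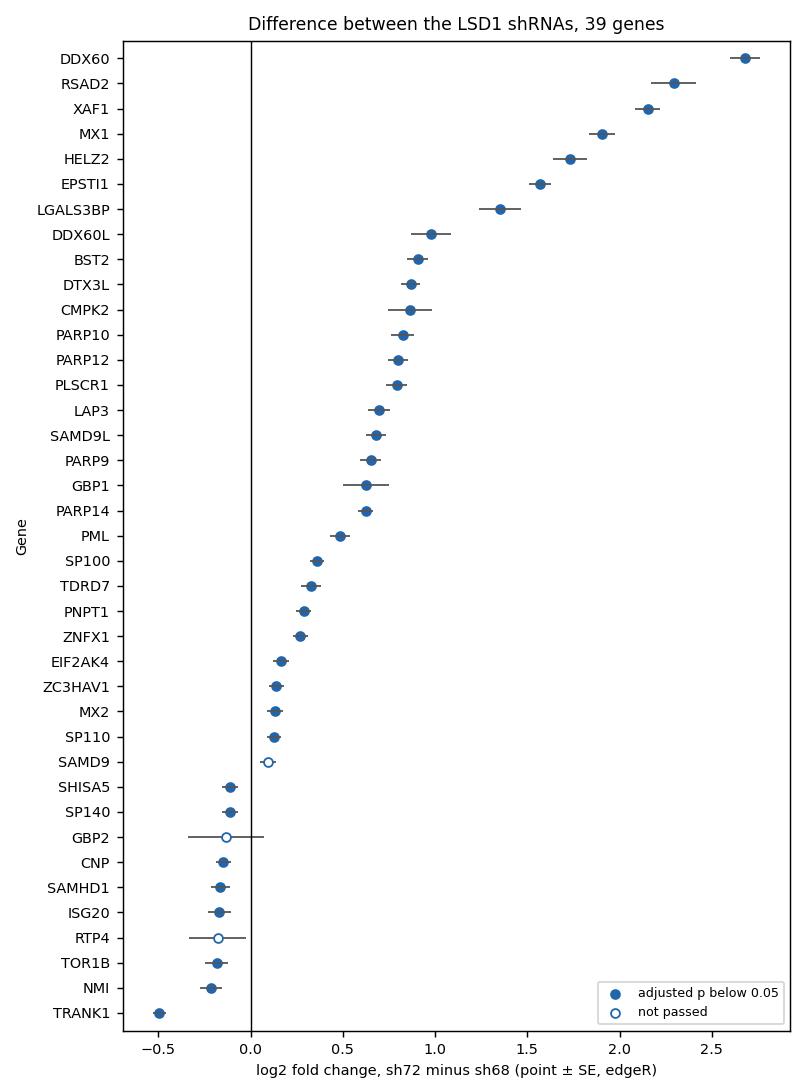
Log2 fold change of sh72 minus sh68 with SE for the 39 tested genes, highest at the top; filled points have an adjusted p below 0.05. The 28 called genes with higher levels in sh72 cells reach 2.68 for DDX60, the 8 with lower levels reach -0.50 for TRANK1, and the 3 open points are SAMD9, RTP4 and GBP2.

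The interferon signalling genes that lie above the effectors moved less uniformly. Of 35 listed receptors, kinases, factors, inhibitors and ligands, 32 were in the table and 27 were tested, and on the mean of both shRNAs 15 fell, 5 rose and 7 did not pass. With sh68, 11 fell and 7 rose, and with sh72, 18 fell and 2 rose, which stand against the shares of all tested genes given above. IRF9, the DNA-binding part of ISGF3, fell, with log2 fold changes of -1.43 with sh68 and -0.69 with sh72, and STAT2 was at -0.61 and -0.21. USP18, an inhibitor of interferon receptor signalling that is itself induced by interferon, had 1.38, 1.08 and 1.68 CPM in the sh68 libraries, 7.61, 5.62 and 5.904 CPM in the sh72 libraries and 17.1, 14.4 and 13.5 CPM in the shSCR libraries, log2 fold changes of -3.44 with sh68 and -1.23 with sh72. ISG15, which the list holds as a stabiliser of USP18 and whose family is outside the 42 genes, fell, with log2 fold changes of -2.95 and -1.20.

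IRF7, which amplifies interferon production, was read at 0.284 to 0.368 CPM in sh68, 0.722 to 0.991 CPM in sh72 and 1.37 to 1.90 CPM in shSCR. PTPN6, the phosphatase SHP-1, fell, with log2 fold changes of -1.63 with sh68 and -1.83 with sh72. Of 6 receptor subunits, 2 fell and 3 rose on the mean of both shRNAs. IFNAR1 was at 0.03 ± 0.04 (adjusted p = 0.474) with sh68 and 0.02 ± 0.04 (adjusted p = 0.742) with sh72, and IFNAR2 was higher with sh68 (0.42) and lower with sh72 (-0.21). IFNLR1, the subunit for type III interferon, rose with each (0.60 and 0.19). JAK1 was higher with sh68 (0.36) and lower with sh72 (-0.33), as was IRF1 (0.37 and -0.44), and TYK2 passed with neither. Of the ligands, IFNB1 was read at 0.171 to 0.284 CPM in sh68, 0.0984 to 0.350 CPM in sh72 and 0.139 to 0.319 CPM in shSCR and was too low to test, and IFNW1, the only one tested, did not pass.

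**Figure D5:**
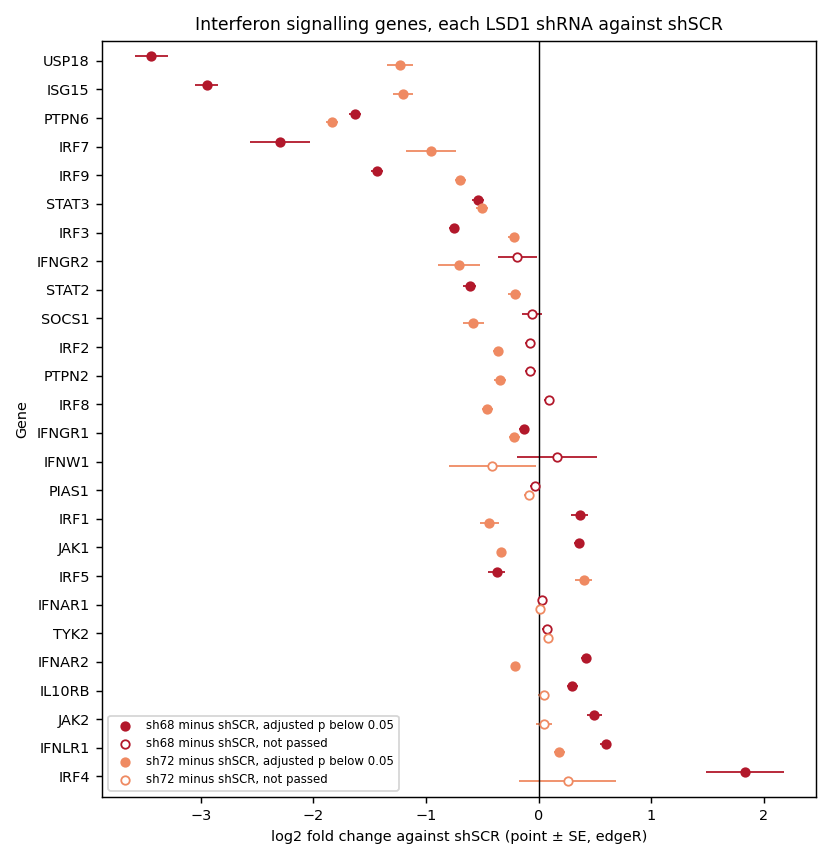
Log2 fold change against shSCR of the tested interferon signalling genes, 1 left out, for sh68 (dark red) and sh72 (orange), with SE, lowest mean at the top; filled points have an adjusted p below 0.05. USP18, ISG15, PTPN6, IRF7 and IRF9 have the lowest means of both shRNAs among those drawn, and the points of IFNAR1 lie near 0.

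Members with and members without the response element in the promoter window were both mostly called lower. Of 33 tested members with a window, 19 held a copy and 14 held none. On the mean of both shRNAs, 15 of the 19 and 13 of the 14 were called lower. Among tested genes outside the list, 36% of those with a copy and 29.5% of those without were called lower. The median log2 fold change was -0.82 with a copy and -0.48 without, and by shRNA it was -1.21 and -0.51 for sh68 and -0.39 and -0.45 for sh72. These medians are descriptions of a chosen list. GBP1 holds a copy and rose with sh72, LGALS3BP holds a copy and moved in opposite directions, and RTP4 holds 2 copies and passed in no comparison.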

How the data were processed

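The authors deposited counts: unnormalized whole reads for each gene symbol in each library. Per the submitters' processing notes, the tools were featureCounts 1.5.2, STAR 2.5.2 and CASAVA 1.8.2, with hg38 as the genome. No source used here gives their parameters, annotation or strand setting. All 9 columns were used, named sh68, sh72 and shSCR as in the table. The sample titles number the LSD1 shRNAs instead, and no label ties those numbers to the table's names.

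Genes were kept by filterByExpr, scaled by TMM and fitted in 1 edgeR 4.0.16 quasi-likelihood model (limma 3.58.1, R 4.3.3) with a term per group, tested on simulated data first. P values were Benjamini-Hochberg adjusted over all 15725 genes, and those below 0.05 were called. CPM are edgeR's values on the TMM-scaled library sizes, and the SE is the log2 fold change over the square root of F. Alternatives were RLE scaling, library size alone, other filters, DESeq2 1.42.0, limma-voom, a replicate block and leaving out each library. Same-numbered libraries had residual correlations of -0.04 to 0.07 over 9 pairs and were not treated as paired. Of the 9 libraries, 6 correlated best with a library of their own number among those of the other groups. Exon overlaps and lengths come from GENCODE 29, positions and promoter windows from RefSeq on GRCh38.p14.

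The members and the signalling and marker lists were chosen with earlier results of these data known. Values in every library are given for the 12 lowest and 4 highest members on the mean of both shRNAs among those that passed, the 5 with the greatest difference between shRNAs, those that passed in opposite directions, and the pairs RSAD2 and CMPK2, PARP9 and DTX3L, SAMD9 and SAMD9L, DDX60 and DDX60L, and MX1 and MX2. A gene of the signalling list is counted but its values are not reported here.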

Additional observations from a re-analysis of the deposited data

Results flagged for a closer look

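LGALS3BP was picked out because its change differed in sign between the LSD1 shRNAs. The test of that difference used the same libraries that picked it out, so it adds no independent support. LGALS3BP had 2.82, 3.08 and 3.38 CPM in the sh68 libraries, 7.06, 8.56 and 8.20 CPM in the sh72 libraries and 4.61, 4.92 and 4.31 CPM in the shSCR libraries. The log2 fold change of sh72 minus sh68 was 1.35 ± 0.11 (adjusted p = 4.8e-10 by edgeR's quasi-likelihood test). The 3 libraries of sh68 lay below all controls and the 3 of sh72 above them. B-cell markers summed to 2781 to 2950 CPM in sh72, against 4356 to 4484 CPM in sh68, and their part in this difference was not tested.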

How the results depend on the processing

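The counts of the 39 genes changed most under a minimum change of 1.5-fold, which asks for more than a change from 0. Under it, 17 of the genes were lower and 0 higher on the mean of both shRNAs, 21 and 0 with sh68, 8 and 0 with sh72, and for sh72 minus sh68 0 were lower and 14 higher. Over all tested genes the same minimum gave 269 lower and 629 higher on the mean, 335 and 1142 with sh68, 505 and 580 with sh72, and 1036 and 359 for sh72 minus sh68. With the 6 LSD1 shRNA libraries fitted as 1 group, whose own spread then holds the difference between shRNAs, 1724 genes were lower and 1857 higher, and of the 39 genes 22 were lower and 3 higher. There BST2, DDX60, EIF2AK4, EPSTI1, HELZ2, LAP3, NMI, PLSCR1, RSAD2, SP100 and TRANK1 lost their lower call and GBP1 its higher one, with DDX60 at -1.71 (adjusted p = 0.0892) and RSAD2 at -1.70 (adjusted p = 0.0556). The count of these genes lower for sh72 minus sh68 was 5 by DESeq2 and between 3 and 8 when each library was left out. Over all genes tested in each fit it was 3918 by DESeq2 and between 4147 and 4531 when each library was left out. The main fit did not pair libraries by replicate number. With the replicate numbers as a block, the 39 genes gave 33 lower and 4 higher on the mean and 8 lower and 29 higher for sh72 minus sh68. Over all genes the block gave 4540 lower and 4091 higher on the mean, and 4710 lower and 4480 higher for sh72 minus sh68. None of the called results of the 39 genes changed sign under the alternatives run. Alternative scalings moved the median of all genes by at most 0.04 on the log2 scale. LY6E and GBP4 could not be tested at this depth. The 3 replicates of each group come from 1 cell line.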

Other observations

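Outside the 42 genes, 431 tested genes with a promoter window held a copy of the response element and 10227 held none. On the mean of sh68 and sh72 against shSCR, 36% of those with a copy and 29.5% of those without were called lower, and 24.8% and 25.1% were called higher. Genes lower by 2-fold or more made up 3.71% of those with a copy, which is 16 genes, and 0.929% of those without. Other interferon-stimulated families, such as IFIT, OAS, ISG15, IFI44 and IFITM, were not taken out of either group. Their part in these shares was not tested. For sh72 minus sh68, 28.8% of those with a copy and 29.5% of those without were called higher. These shares are descriptions over genes, which are not independent of each other, and were not tested.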
